A study of Mus musculus with 6 samples.

Results

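The immediate early and cAMP responsive genes were examined in MIN6B1 cells after knockdown of circHIPK3, which is a circular transcript of the Hipk3 gene. They were 34 genes chosen by the symbol that annotates a probe, made up of AP-1, EGR, NR4A, IER, DUSP and KLF family genes and targets of the transcription factor CREB. All 34 were found among the 25777 genes and unnamed transcripts that could be tested, by 39 non-control probes. All 34 passed the filter on dim probes, which kept a probe if every one of the 3 arrays of either group had it well above background. For 32 of them the signal was well above background on all 6 arrays, and for Egr3 and Nr4a3 on 2 of the 3 siGFP arrays and on all 3 circHIPK3 siRNA arrays.

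MIN6B1 cells descend from a mouse insulinoma, secrete insulin and are used to study beta cells in culture. One group of 3 samples received a control small interfering RNA (siRNA) that targets green fluorescent protein (siGFP) and the other group of 3 an siRNA against circHIPK3, both for 48 h with the same lipid reagent in culture medium containing serum. The labels name no further stimulus, and no genotype or allele distinguishes the groups. The RNA of every sample was measured on a separate Agilent array with 1 dye.

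Immediate early genes are transcribed within minutes of a stimulus without new protein synthesis, and their mRNAs are short-lived. In beta cells, glucose and incretin hormones raise calcium and cAMP, which act through protein kinase A, calcium-dependent kinases and the ERK cascade on CREB, serum response factor and its partners. The products are mostly transcription factors, and some of them, such as the DUSP phosphatases and the RNA-binding protein encoded by Zfp36, switch the signal off again. CREB binds the cAMP response element (CRE), and serum response factor binds the CArG box.

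The sequences below are shown because they hold letters that match the CRE or its core, the CArG box or the TATA box. They are the 250 bases before the RefSeq start of 5 members and of Btg2, a stimulus-responsive gene described further on, on the gene's strand of GRCm38.p6. Capitals mark a full CRE (TGACGTCA), a CRE core (TGACG or, on the other strand, CGTCA), a CArG box, or a TATA box (TATAAA, gene strand only). A CRE core inside a full CRE is counted under both.
Fos, chr12:85473640-85473889, plus strand: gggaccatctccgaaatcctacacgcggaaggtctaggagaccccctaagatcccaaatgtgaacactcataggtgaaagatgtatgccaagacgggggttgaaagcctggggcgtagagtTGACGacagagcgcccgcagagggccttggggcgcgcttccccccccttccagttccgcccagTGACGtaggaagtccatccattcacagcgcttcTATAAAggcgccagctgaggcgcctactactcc
Junb, chr8:84978749-84978998, minus strand: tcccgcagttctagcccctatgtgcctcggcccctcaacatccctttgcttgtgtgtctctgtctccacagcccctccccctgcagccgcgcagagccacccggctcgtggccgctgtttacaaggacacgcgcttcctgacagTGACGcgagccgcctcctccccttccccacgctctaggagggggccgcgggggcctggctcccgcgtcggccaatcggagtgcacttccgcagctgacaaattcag
Nr4a1, chr15:101266596-101266845, plus strand: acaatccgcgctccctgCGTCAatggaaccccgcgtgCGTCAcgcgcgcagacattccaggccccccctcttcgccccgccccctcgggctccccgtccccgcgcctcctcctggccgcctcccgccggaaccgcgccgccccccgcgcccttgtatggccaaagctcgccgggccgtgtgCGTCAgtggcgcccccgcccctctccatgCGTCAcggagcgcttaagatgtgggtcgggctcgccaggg
Dusp1, chr17:26508473-26508722, minus strand: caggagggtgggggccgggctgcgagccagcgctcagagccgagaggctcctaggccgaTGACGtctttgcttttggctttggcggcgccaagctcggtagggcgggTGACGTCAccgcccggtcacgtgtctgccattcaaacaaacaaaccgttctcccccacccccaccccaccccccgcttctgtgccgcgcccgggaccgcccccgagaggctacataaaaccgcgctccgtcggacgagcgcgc
Zfp36, chr7:28379229-28379478, minus strand: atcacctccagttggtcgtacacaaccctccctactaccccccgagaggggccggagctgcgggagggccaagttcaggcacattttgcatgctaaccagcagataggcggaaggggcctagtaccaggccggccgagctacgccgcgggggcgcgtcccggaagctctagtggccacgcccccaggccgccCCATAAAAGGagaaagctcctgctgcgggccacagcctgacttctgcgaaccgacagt
Btg2, chr1:134079156-134079405, minus strand: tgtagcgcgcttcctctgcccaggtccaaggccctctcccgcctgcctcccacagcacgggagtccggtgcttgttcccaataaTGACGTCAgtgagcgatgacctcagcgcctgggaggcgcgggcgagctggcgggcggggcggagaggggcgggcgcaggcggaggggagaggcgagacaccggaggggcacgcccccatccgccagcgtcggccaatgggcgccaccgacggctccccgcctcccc
The Fos window held CRE cores beginning 129 and 66 bases before the start and a TATA box beginning 33 bases before it. The Dusp1 window held the only full CRE among the members, beginning 143 bases before the start. Nr4a1 had 4 CRE cores, Junb had 1, and Zfp36 had a CArG box beginning 58 bases before the start.

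Promoter windows were present in the RefSeq table for 24 of the 34 members, as 29 windows. A CRE core on either strand was found in 15 of these 24 genes (62.5%), and in 5347 of all 27025 genes with a window (19.8%). CArG boxes were found in 3 of the 24, namely Dusp5, Egr2 and Zfp36 (12.5%), against 1.62% of all genes. A full CRE was found in 1 of 24, against 1.77% of all genes. The AP-1 site TGACTCA and the EGR site GCGTGGGCG, searched on both strands, were in none of the members' windows and in 5.16% and 0.622% of all genes. These matches describe letters in a window of 250 bases and are not evidence of binding. The members were chosen as immediate early and cAMP responsive genes, CREB targets among them. Their share of CRE cores is therefore not independent of that choice.

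Signals are given on the log2 scale relative to the 75th percentile of each array, so that 0 is the signal at that percentile. Changes are circHIPK3 siRNA minus siGFP on the same scale, and each has its standard error (SE) from limma. Tests were two-sided by limma, and adjusted p-values (Benjamini-Hochberg) cover all 25777 genes and unnamed transcripts, with a threshold of 0.05. Whether replicates came from separate cultures is not stated in the labels, and the p-values reflect no more than the spread of these samples, and that spread may be technical. An exact permutation test of 3 against 3 arrays cannot give a p below 0.10, the value of every member whose groups did not overlap.

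The 75th percentiles of the arrays were 2939 to 3669 units. The share of probes well above background was 77.7%, 79.8% and 78.6% with siGFP and 80.7%, 83.5% and 82.5% with circHIPK3 siRNA. The groups did not overlap in this share, and its part in the values of dim probes was not tested. The file headers give 2 scan times, and array positions recur between them, which places the 3 siGFP arrays and circHIPK3 siRNA replicate 1 on a first slide and circHIPK3 siRNA replicates 2 and 3 on a second. The second slide held 1 group only, so no within-slide difference can be had there. Hipk3, the host gene of the targeted circle, lay at 2.69, 2.96 and 2.78 in the siGFP arrays and at 2.53, 2.89 and 2.51 in the circHIPK3 siRNA arrays by its brighter probe, with overlapping groups and a change of -0.17 ± 0.14 (SE), and its second probe gave -0.31 ± 0.12, also with overlapping groups. Whether these probes lie inside the circle is unknown here, so they are no check of the knockdown. All 9 beta cell markers listed, among them Ins1, Ins2, Pdx1 and Mafa, were well above background on all 6 arrays. The alpha cell hormone gene Gcg was too, with a change of -0.59 ± 0.30 (SE, limma adjusted p = 0.29) and overlapping groups. None of the 27 markers of islet and other cell types that were measured passed the threshold. An unadjusted p under 0.05 by limma was found for 4 of them (14.8%, against 21.1% of all genes). Among the 4 were the delta and PP cell hormone genes Sst, at 0.30 ± 0.12 (SE) with separate groups, and Ppy, at 0.52 ± 0.21 with overlapping groups. Quantile normalization gave 0.084 for Sst and 0.47 for Ppy. The summed linear signal of Sst, Ppy and Hhex, the last not well above background on any array, overlapped between the groups. It was 0.208 to 0.313 times the 75th percentile with siGFP and 0.290 to 0.402 with circHIPK3 siRNA. The beta cell zinc transporter gene Slc30a8 gave -0.33 ± 0.10 (SE), also with separate groups. The remaining marker of the 4, Col3a1 of fibroblasts and stellate cells, gave 0.52 ± 0.15 (SE) with separate groups, and 0.28 with quantile normalization. The sums also overlapped between the groups for the macrophage and leukocyte markers (0.792 to 0.996 and 0.806 to 1.24) and for the fibroblast and stellate cell markers (0.376 to 0.409 and 0.368 to 0.423). The part of other cell types in the members' values was not tested.

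None of the 34 members passed the threshold over all genes, where 1.18% of all genes and unnamed transcripts did. The smallest adjusted p was that of Arc, at 0.0889. By limma 8 members had an unadjusted p under 0.05, 5 higher and 3 lower after circHIPK3 siRNA. That is 23.5% of the members, near the 21.1% of all genes with such a p (14.6% higher and 6.51% lower). The groups did not overlap for 9 members, 6 higher and 3 lower, which is 26.5% of the members and near the 25.9% of all genes (16.6% higher and 9.38% lower). Both shares are near the background and are no result about the members.

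The size of the estimates is bounded by their intervals. For 32 of the 34 members the 95% interval of the limma fit, not adjusted for the number of genes, lay within a 2-fold change in either direction. The 2 exceptions were Junb, with an interval of 0.27 to 1.05, and Egr3, with an interval of -0.25 to 1.42. Nr4a3, with an interval of -0.08 to 0.81, is among the 32. Its siGFP signal was in part under the background limit, as described below, so its interval is no bound. The intervals take no account of the slides. The interval spanned 0 for 26 members. The median change was 0.15 over the members and 0.08 over all genes, and 23 of 34 members (67.6%) lay above the median of all genes, where 50.0% of all genes do. The change was above 0 for 26 members (76.5%) and for 64.1% of all genes. Without Egr3 and Nr4a3, which passed the filter only through the circHIPK3 siRNA arrays, 21 of 32 members lay above the median of all genes, 24 of 32 were above 0 and the median change was 0.14. Scaling to the median of each array, not its 75th percentile, moved the median of all genes by -0.11. Each scaling subtracts a constant from all genes of an array. The members' median relative to all genes, 0.06, was therefore the same under both by construction. The estimates moved with the scaling by over 1.5 times for Fos (0.15 with median scaling), Nr4a1 (0.14), Npas4 (0.16), Dusp1 (0.048) and Dusp4 (0.14), which are all smaller than the values given below.

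**Figure D1:**
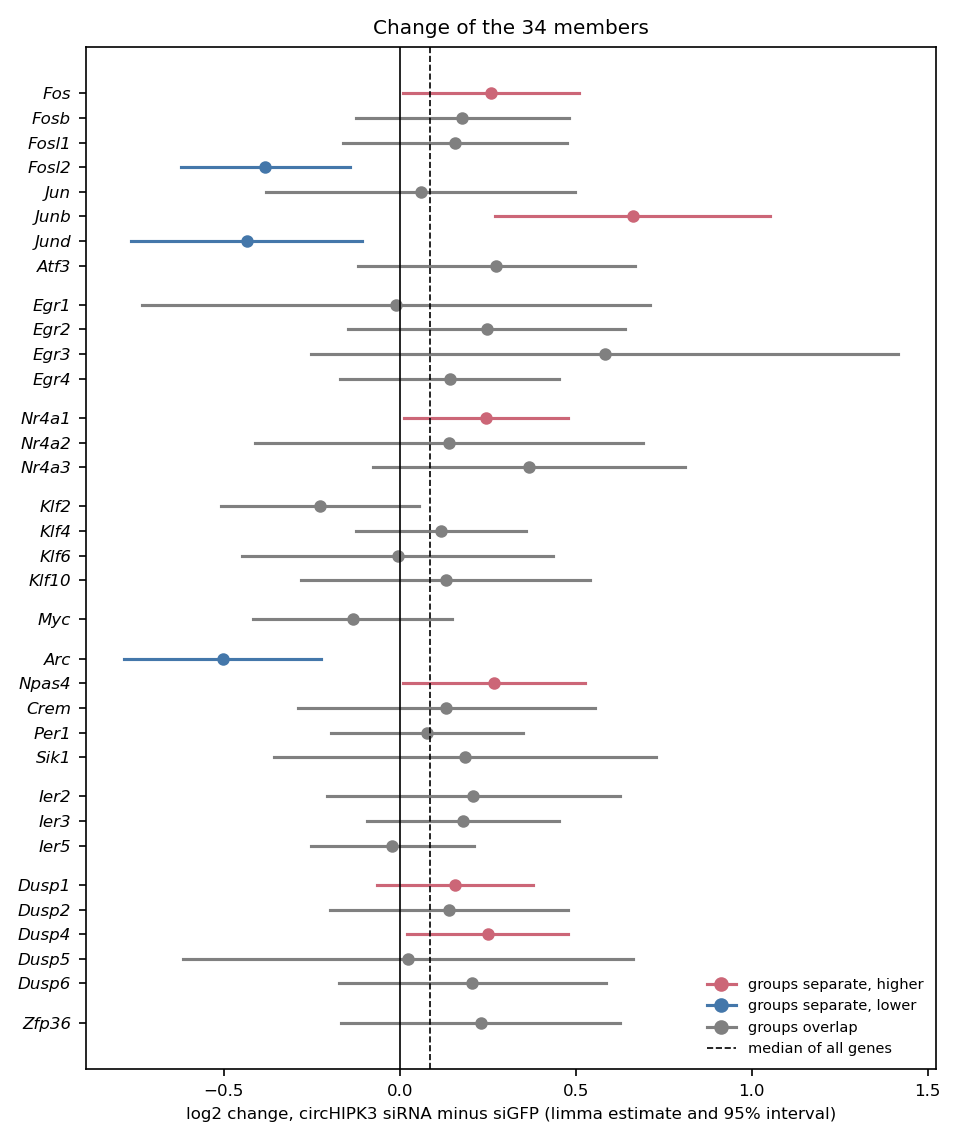
Change of each of the 34 members (log2, circHIPK3 siRNA minus siGFP, horizontal axis) with the 95% interval of the limma fit, ordered by family from AP-1 at the top to Zfp36 at the bottom; the dashed line is the median of all genes, 0.08, and red, blue and grey mark separate groups with higher values, separate groups with lower values and overlapping groups. Junb is the highest of the 34 at 0.66 and Arc is the lowest at -0.50.

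The AP-1 genes encode the Fos and Jun proteins, which pair to form the AP-1 transcription factor, and the set also held Atf3, a stress-induced member of the ATF and CREB family. Among the 8, the groups were separate for 4, of which Fos and Junb lay higher and Fosl2 and Jund lay lower, and none of the 8 passed. The groups were separate for 25.9% of all genes, and no test was made of the family. Junb lay at -3.46, -3.71 and -3.55 in siGFP replicates 1 to 3 and at -2.56, -3.16 and -3.02 in circHIPK3 siRNA replicates 1 to 3. All 3 circHIPK3 siRNA arrays were above all 3 siGFP arrays, and replicate 1 stood highest. The means were -3.57 ± 0.13 and -2.91 ± 0.31 (SD, n = 3 each), and the change of 0.66 ± 0.17 (SE), or 1.58-fold, had an adjusted p of 0.0998 by limma. On the first slide alone, where circHIPK3 siRNA replicate 1 is the only array of its group, the difference for Junb was 1.01, which is over 1.5 times the value from all arrays.

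Fos itself lay at -0.72, -0.75 and -0.69 in the siGFP arrays and at -0.37, -0.63 and -0.39 in the circHIPK3 siRNA arrays. The siGFP arrays lay close together, and circHIPK3 siRNA replicate 2 stood just above them. The change was 0.26 ± 0.11 (SE), 1.20-fold, with an adjusted p of 0.225 by limma.

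Jund, the Jun family gene that is expressed without stimulation in many cell types, lay at 3.83, 3.75 and 3.79 with siGFP and at 3.55, 3.44 and 3.06 with circHIPK3 siRNA. The groups were separate and replicate 3 was the lowest circHIPK3 siRNA array. The means of 3.79 ± 0.04 and 3.35 ± 0.26 (SD, n = 3 each) gave a change of -0.44 ± 0.14 (SE) and an adjusted p of 0.157 by limma. The difference on the first slide alone was -0.24, smaller by over 1.5 times.

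Fosl2, which encodes the Fos-related protein Fra-2, was measured by 2 probes that differed. Its brighter probe lay at -0.21, -0.03 and -0.01 with siGFP and at -0.53, -0.48 and -0.38 with circHIPK3 siRNA, a change of -0.38 ± 0.10 (SE, limma adjusted p = 0.113). Its second probe lay at -2.95, -2.89 and -3.06 and at -3.15, -2.84 and -2.69, with overlapping groups and a change of 0.07 ± 0.14 (SE). The changes of these probes differed by -0.46 (two-sided exact permutation p = 0.10, adjusted p = 0.20 over the 6 probe pairs of members with several probes). The lower value of Fosl2 therefore rests on 1 of its 2 probes.

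The other 4 AP-1 genes had overlapping groups. Jun lay at 0.99, 0.86 and 0.86 with siGFP and at 1.39, 0.84 and 0.65 with circHIPK3 siRNA, so that circHIPK3 siRNA arrays held both its highest and its lowest value (change 0.06 ± 0.19, SE). Atf3 had a change of 0.27 ± 0.17 (SE), with circHIPK3 siRNA replicate 1 the highest array at 0.76 and siGFP replicate 3 the lowest at -0.04. Fosb, a second Fos paralogue, gave 0.18 ± 0.13 and Fosl1, which encodes Fra-1, gave 0.16 ± 0.14 (SE).

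**Figure D2:**
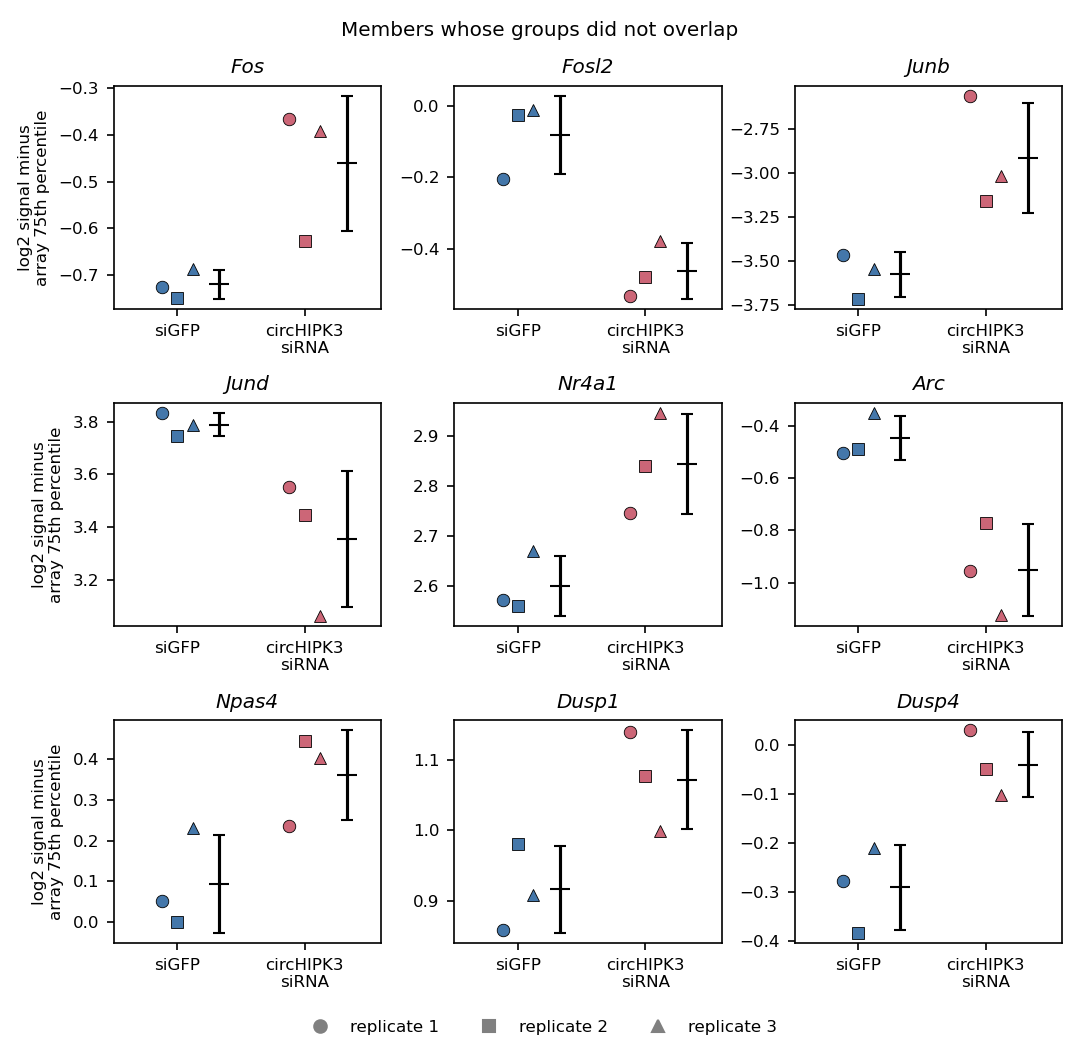
Signal on each array (log2 relative to the array's 75th percentile, vertical axis; each panel has its own range) for the 9 members whose groups did not overlap; symbols mark replicate numbers, and bars beside them show the mean and SD of 3 arrays. Fos, Junb, Nr4a1, Npas4, Dusp1 and Dusp4 are higher and Fosl2, Jund and Arc are lower with circHIPK3 siRNA, and the gap between groups is narrow for Npas4 and Dusp1.

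Among genes known as targets of neuronal activity and of CREB, Arc and Npas4 lay on opposite sides. Arc, which encodes a cytoskeleton-associated protein known from synapses, lay at -0.51, -0.49 and -0.35 with siGFP and at -0.95, -0.77 and -1.13 with circHIPK3 siRNA. The groups were separated by more than the range of the siGFP arrays. The means were -0.45 ± 0.08 and -0.95 ± 0.18 (SD, n = 3 each), and the change of -0.50 ± 0.12 (SE), 1.42-fold lower, had the adjusted p of 0.0889 by limma named above. On the first slide alone the difference was -0.51.

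Npas4 encodes a transcription factor induced by calcium entry. It lay at 0.05, -0.0011 and 0.23 with siGFP and at 0.24, 0.44 and 0.40 with circHIPK3 siRNA. The highest siGFP array and the lowest circHIPK3 siRNA array nearly met, and the change was 0.27 ± 0.11 (SE, limma adjusted p = 0.227). The first slide alone gave 0.14, smaller by over 1.5 times.

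Crem, which encodes activators and repressors that bind the CRE, was measured by 3 probes. Its brightest probe lay at -1.36, -1.73 and -1.22 with siGFP and at -1.41, -1.50 and -1.01 with circHIPK3 siRNA, a change of 0.13 ± 0.18 (SE), and a second probe of the same transcript gave 0.13 ± 0.14. The third, designed on another transcript (NM_001110851), lay at -6.19, -6.29 and -5.82 and at -5.66, -5.60 and -5.23, with separate groups and a change of 0.60 ± 0.17 (SE), for which limma over all kept probes gave an adjusted p of 0.116. Its change differed from those of the other probes by 0.47 and 0.48 in size (exact permutation p = 0.10 for each, adjusted p = 0.20). The circadian repressor gene Per1 gave 0.08 ± 0.12 and Sik1, whose kinase inactivates the CREB coactivators of the CRTC family, gave 0.18 ± 0.23 (SE), both with overlapping groups.

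The NR4A genes encode orphan nuclear receptors induced by cAMP and calcium. Nr4a1 lay at 2.57, 2.56 and 2.67 with siGFP and at 2.75, 2.84 and 2.95 with circHIPK3 siRNA. The groups were separate, and the change of 0.24 ± 0.10 (SE), 1.18-fold, had an adjusted p of 0.221 by limma. It was 0.15 on the first slide alone, which is smaller by over 1.5 times. Nr4a2 gave 0.14 ± 0.24 and 0.10 ± 0.16 (SE) by its 2 probes, with overlapping groups in both. Nr4a3 passed the filter only through the circHIPK3 siRNA arrays. Its signal on siGFP replicate 1, -6.82, was under the lowest signal well above background on that array (-6.75), so its estimate of 0.37 ± 0.19 (SE) is not an exact difference, and its groups overlapped.

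The EGR genes encode zinc-finger transcription factors of growth factor and calcium signalling, and no EGR gene had separate groups. Egr1 lay at 0.23, 1.25 and 0.66 with siGFP and at 0.31, 1.22 and 0.57 with circHIPK3 siRNA. The arrays of each group thus lay far apart while the means were nearly equal (change -0.01 ± 0.31, SE, with an interval of -0.73 to 0.71). Egr2 gave 0.25 ± 0.17 and Egr4 gave 0.14 ± 0.13 (SE). Egr3 also passed the filter only through the circHIPK3 siRNA arrays. It lay at -6.13, -7.22 and -6.41 with siGFP and at -6.50, -6.15 and -5.37 with circHIPK3 siRNA, and the value of siGFP replicate 2 was under the lowest signal well above background on that array (-7.10). The estimate of 0.58 ± 0.36 (SE) is therefore not an exact difference.

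Among the KLF genes, which encode Krüppel-like zinc-finger transcription factors, all 4 had overlapping groups. Klf2 gave -0.23 ± 0.12 (SE), the lowest change among the members with overlapping groups, Klf4 gave 0.12 ± 0.10 and Klf10 gave 0.13 ± 0.18. Klf6 gave -0.01 ± 0.19, with circHIPK3 siRNA arrays at 0.09, -0.19 and -0.55. The growth regulator gene Myc lay at -0.70, -0.90 and -0.97 with siGFP and at -0.86, -0.97 and -1.15 with circHIPK3 siRNA, a change of -0.13 ± 0.12 (SE) with overlapping groups.

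The products that limit the signal were examined next. The DUSP genes encode phosphatases that inactivate MAP kinases, and Dusp1 and Dusp4 among the 5 had separate groups, as did 25.9% of all genes. The estimates of all 5 were above 0, as were 64.1% over all genes, but that of Dusp2 was below 0 with quantile normalization, cyclic loess, the deposited value table and the slide block, and that of Dusp5 with median scaling, array weights and some replicates left out. Dusp4 lay at -0.28, -0.38 and -0.21 with siGFP and at 0.03, -0.05 and -0.10 with circHIPK3 siRNA. The change of 0.25 ± 0.10 (SE), 1.19-fold, had an adjusted p of 0.209 by limma. Dusp1 lay at 0.86, 0.98 and 0.91 with siGFP and at 1.14, 1.08 and 1.00 with circHIPK3 siRNA, and its groups were separate by a narrow gap. Its change was 0.16 ± 0.09 (SE, adjusted p = 0.367), and its spread within groups was the smallest of the 34 members.

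The other 3 phosphatase genes overlapped. Dusp6, whose product acts on ERK in the cytoplasm, gave 0.21 ± 0.16, Dusp2 gave 0.14 ± 0.14 and Dusp5 gave 0.02 ± 0.27 (SE). Zfp36 encodes tristetraprolin, which marks AU-rich mRNAs for decay, and lay at -1.98, -2.19 and -1.99 with siGFP and at -2.14, -1.85 and -1.49 with circHIPK3 siRNA (change 0.23 ± 0.17, SE). The IER genes Ier2, Ier3 and Ier5 gave 0.21 ± 0.18, 0.18 ± 0.12 and -0.02 ± 0.10 (SE), and a second probe of Ier5 gave -0.12 ± 0.13. The groups overlapped for all of these.

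The spread within groups differed widely between members. The pooled SD within groups had a median of 0.19 over the members and 0.16 over all genes, and 21 of 34 members were above the median of all genes. Egr3 (0.57) and Egr1 (0.49) stood at the 98.1 and 96.9 percentiles of all genes. They were followed by Dusp5 (0.43), Nr4a2 (0.36) and Sik1 (0.36) at the 95.3, 92.0 and 91.5 percentiles, whereas Dusp1 (0.07) stood at the 6.67 percentile. Egr3 was also not well above background on 1 array, and the part of this in its spread was not tested.

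For several of the variable members the arrays with the same replicate number were alike in both groups. Dusp5 lay at -0.93, -1.48 and -0.63 with siGFP and at -0.99, -1.43 and -0.57 with circHIPK3 siRNA. Sik1 lay at -0.33, -0.86 and -0.01 and at -0.21, -0.49 and 0.04, and Nr4a2 lay at -0.31, -0.81 and -0.23 and at -0.26, -0.74 and 0.07. In these 3 genes replicate 2 was the lowest array of each group, and in Egr1, given above, it was the highest of each.

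Counted over all 34, replicate 2 was lowest in both groups for 8 members (23.5%, against 17.7% of all genes), namely Fos, Junb, Nr4a2, Crem, Sik1, Ier2, Dusp5 and Dusp6. It was highest in both groups for 5 members (14.7%, against 9.83% of all genes), namely Egr1, Egr2, Egr4, Klf2 and Klf10. Replicate 3 was lowest in both groups for 7 members (20.6%, against 8.95% of all genes), among them Atf3, Klf4, Klf6 and Myc, and highest in both for 8 (23.5%, against 11.5%), among them Crem, Sik1, Dusp5 and Dusp6. Replicate 1 was lowest in both for 4 (11.8%, against 8.08%) and highest in both for 6 (17.6%, against 12.2%). The labels do not say what a replicate number shares between the groups, and this pattern was chosen for description after the values were seen.

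**Figure D3:**
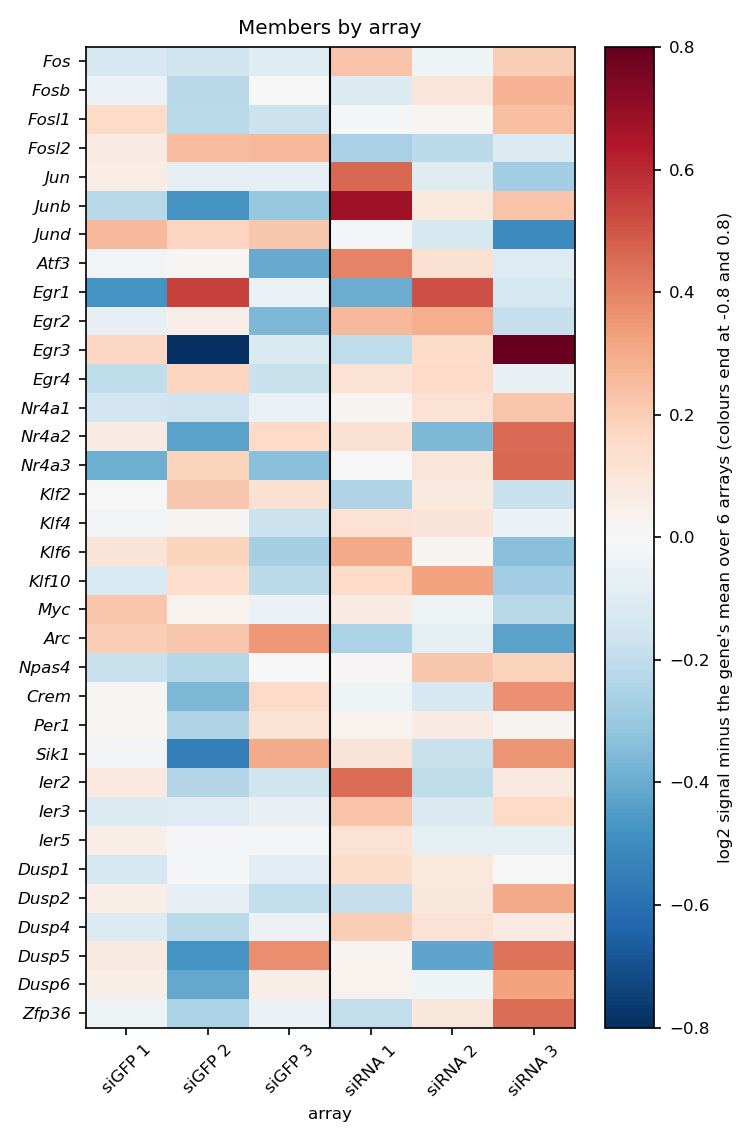
Signal of each member (rows) on each array (columns), as log2 difference from that gene's mean over the 6 arrays; red is above and blue below the mean, and the vertical line separates siGFP from circHIPK3 siRNA (siRNA) arrays. Egr1 is high on replicate 2 of both groups, and Nr4a2, Sik1 and Dusp5 are low on it, while Arc, Fosl2 and Junb divide between the groups.

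The members were also summarised by array, as the median over the 34 of the difference from each gene's siGFP mean. With siGFP these medians were 0.048, -0.040 and 0.018, and with circHIPK3 siRNA they were 0.14, 0.10 and 0.18. Over all genes they were 0.041, -0.052 and -0.0024 with siGFP and 0.044, 0.066 and 0.12 with circHIPK3 siRNA. The members' median was above that of all genes on all 6 arrays, those of the siGFP group included, with no test of this score. For each gene the siGFP differences sum to 0 by construction, so the siGFP medians cannot show a shift of that group. The 34 include Egr3 and Nr4a3, which passed the filter only through the circHIPK3 siRNA arrays.

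Promoter letters were set beside the changes as a description. The 15 members with a CRE core in the window had a median change of 0.18, and the 9 with a window but no CRE core had 0.06. The 15 include Nr4a3, which passed the filter only through the circHIPK3 siRNA arrays. Over all genes tested, the medians were 0.03 for 3563 genes with a CRE core and 0.07 for 10073 without. The 3 members with a CArG box had a median change of 0.23, and the 21 without had 0.14. Over all genes tested, the medians were 0.021 for 211 genes with a CArG box and 0.055 for 13425 without.

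The signalling genes that lead to these targets were listed as 62 receptors, cyclases, kinases, phosphodiesterases and transcription factors, of which 60 were measured. Among them 1 was lower at the threshold, none was higher and 59 did not pass, where 0.640% of all genes were lower and 0.535% higher. The gene that fell was Map2k4, which encodes a kinase that activates JNK and p38. It lay at -0.14, -0.25 and -0.22 with siGFP and at -0.75, -0.77 and -1.02 with circHIPK3 siRNA, with all 3 circHIPK3 siRNA arrays below all siGFP arrays. Map2k4 fell by 0.64 ± 0.11 (SE) on the log2 scale, 1.56-fold, with an adjusted p of 0.0490 by limma, and its second probe gave -0.50 ± 0.12 (SE, adjusted p = 0.0863 over all kept probes). The call was lost in 12 of 20 alternatives (adjusted p between 0.0157 and 0.285 over the 20), while the change was -0.65 with quantile normalization, -0.54 on the first slide and -0.69 to -0.56 with 1 array left out. These alternatives include quantile normalization, the slide block and the omission of 1 array, unless that was circHIPK3 siRNA replicate 1.

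The median of the 60 signalling genes was -0.01, and 13 of them (21.7%) lay above the median of all genes. Creb1, which encodes CREB itself, lay at -2.76, -2.70 and -2.76 with siGFP and at -2.46, -2.47 and -2.39 with circHIPK3 siRNA (change 0.30 ± 0.09, SE, adjusted p = 0.132 by limma). The incretin receptor genes Gipr and Glp1r both had separate groups and lower values, at -0.27 for each (adjusted p = 0.166 and 0.197), and neither passed. The phosphodiesterase genes Pde1c, at -0.43 ± 0.13 (SE), and Pde4d, at -0.29 ± 0.13, also had separate groups and lower values without passing. Groups were separate for 10 of the 60 signalling genes (16.7%), 2 higher and 8 lower. Over all genes the share was 25.9%, with 16.6% higher and 9.38% lower. The 2 higher were Creb1 and the cyclase gene Adcy9, at 0.26 ± 0.12 (SE, adjusted p = 0.250 by limma). Creb1, Adcy9, Gipr, Glp1r, Pde1c and Pde4d were named after their values were seen.

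A further 51 genes known to respond to stimuli were listed outside the 34 members, and 49 were measured. Among them 1 rose at the threshold, Btg2, none was lower and 48 did not pass, where 0.535% of all genes were higher and 0.640% lower. Of the 49, 16.3% had an unadjusted p under 0.05 by limma and 20.4% had separate groups, against 21.1% and 25.9% of all genes. Btg2 encodes an antiproliferative protein, and its window shown above holds a full CRE, as that of Dusp1 does. No other gene of the 49 has its window shown, and the share of the 49 with a full CRE was not counted. The part of the CRE in the change of Btg2 was not tested. Over all genes tested, the median change was 0.033 for 356 genes with a full CRE and 0.055 for 13280 without. Btg2 lay at 1.53, 1.52 and 1.66 with siGFP and at 2.32, 2.15 and 2.55 with circHIPK3 siRNA. It rose by 0.77 ± 0.13 (SE), 1.71-fold, with an adjusted p of 0.0468 by limma, and it had a difference of 0.75 on the first slide alone. The call was lost in 10 of 20 alternatives (adjusted p between 0.00689 and 0.231 over the 20), among them the slide block and the omission of 1 array, again unless that was circHIPK3 siRNA replicate 1. The median of the 49 was 0.04, and Cebpd, a stress-responsive transcription factor gene named after its value was seen, gave 0.62 ± 0.15 (SE, adjusted p = 0.0865). Of the 49, Plk2, Ccn2 and Zfp36l1 passed the filter only through the circHIPK3 siRNA arrays.

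**Figure D4:**
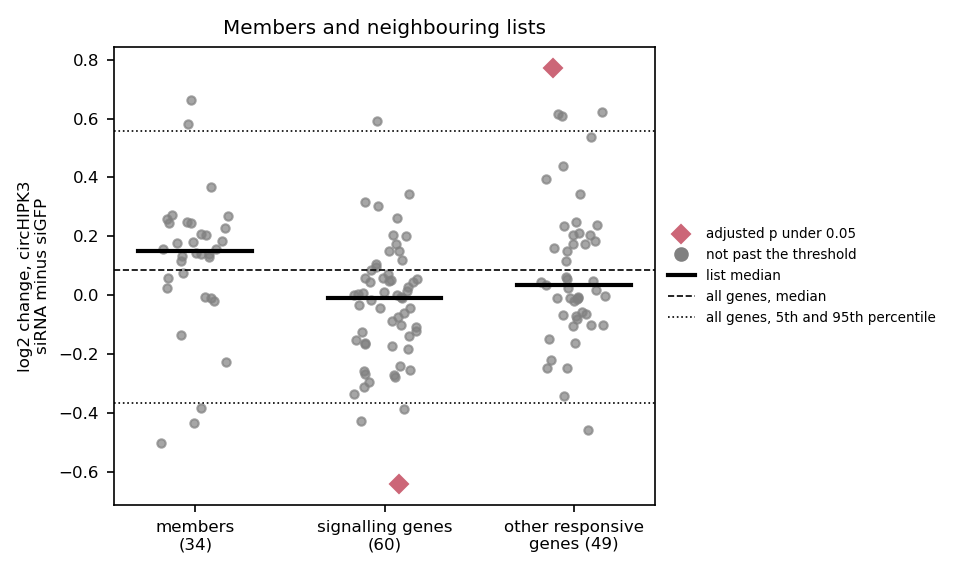
Change (log2, circHIPK3 siRNA minus siGFP) of each measured gene of the 34 members, the 60 signalling genes and the 49 other responsive genes; horizontal positions within a list are random, thick lines are list medians (0.15, -0.01 and 0.04), and thin lines are the median and the 5th and 95th percentiles of all genes. Diamonds mark the 2 genes past the threshold, Map2k4 at -0.64 and Btg2 at 0.77, and no member is marked.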

How the data were processed

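The deposited scanner files hold background-subtracted intensities per spot on a design annotated on mm9, with other columns of 0 or 1 for flags, per the file headers. The submitters' processing notes name Agilent Feature Extraction 11.0.1.1 for the scans. The authors also deposited a table of log2 values for 31868 probes, and the sources used here do not give their normalization. The table's column medians are 9.80, and each column correlates at 0.9999 or more with the log2 intensity of the same array, so scale and direction are as measured and genes were not centred.

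From each log2 intensity the 75th percentile of that array, taken over 43020 non-control spots, was subtracted. Non-uniform and outlier spots were left out, spots of a probe were averaged, and no probe was saturated. Accessions were matched to a RefSeq table of GRCm38.p6, which named 27234 of 39429 probes. Of 31380 probes kept, the brightest stood for each gene. Further probes came from a fit over all kept probes. Differences were fitted with limma 3.58.1 in R 4.3.3 with group as the only term, and exact permutation tests used scipy 1.17.1. The fit was tested on simulated data. The number of arrays limits the precision.

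The rule for names gave all 6 array values for members past the threshold, with separate groups or with an unadjusted p under 0.05, and named the called genes of the other lists. Array values of other members were added after they were seen. Members and lists were chosen with earlier results of these data known.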

Additional observations from a re-analysis of the deposited data

How the results depend on the processing

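No member passed the threshold by limma under any of 20 alternatives, in which 4 to 9 members had an unadjusted p under 0.05. In 8 of the 20 no gene at all was called and in 1 a single gene was, so only the other 11 bear on the members' calls. The smallest adjusted p of a member was 0.0553, for Arc with trend and robust variance. The members' median change relative to all genes ranged from 0.05 to 0.10. None of the 9 members with separate groups changed sign, which separation fixes in part, and 14 of the 34 members did so under some alternative.

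Over all genes, 303 were called (138 higher, 165 lower). The count was 611 with median scaling (201 higher, 410 lower), 185 in the deposited value table (34 higher, 151 lower), 622 with trend and robust variance, 828 with array weights and 124 with the slide as a random block. With quantile normalization the split was 42 higher and 202 lower, with cyclic loess 99 and 319, and with normexp and quantile normalization together 57 and 300. The count was 0 with no filter on dim probes, with the replicate block, with the slide block and on the first slide only. Leaving out 1 array gave 0 to 1737 calls, the highest without circHIPK3 siRNA replicate 1. The causes were not tested.

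The deviations of arrays with the same replicate number correlated at -0.02, 0.27 and -0.13. Of these, only the arrays numbered 2 were above 0.1. Arrays with unlike numbers correlated as strongly, at 0.29 for siGFP replicate 1 with circHIPK3 siRNA replicate 3 and -0.35 for siGFP replicate 1 with circHIPK3 siRNA replicate 2. The numbers were therefore not taken to pair the samples, although some members were alike by number. The replicate block left 0 members called, but it called 0 of all genes too, so this count says nothing about pairing. With that block the SE was 0.10 and not 0.31 for Egr1, and 0.10 and not 0.27 for Dusp5. It was 0.11 and not 0.24 for Nr4a2, and 0.11 and not 0.23 for Sik1. These genes had been named above for being alike by number. The SE rose for others, such as Arc (0.13 and not 0.12). Of the signalling genes, 0 were called with quantile normalization, the value table, no filter, the replicate block, the slide as a block (fixed or random) and the first slide only, and 0 to 1 with 1 array left out. Of the other responsive genes, 2 were called with array weights, 0 with no filter, the replicate block, either slide block and the first slide only, and 0 to 1 with 1 array left out.

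Signs turned as follows, all without a call. With the slide block or on the first slide only, Fosb gave -0.021, Klf6 0.30, Ier5 0.10, Dusp2 -0.11 and Zfp36 -0.080. Quantile normalization gave Fosl1 -0.0055, Egr1 0.0060 and Dusp2 -0.0070, cyclic loess -0.083, 0.0017 and -0.052, and the value table -0.0056, 0.0061 and -0.0071. Median scaling gave Jun -0.049, Per1 -0.031 and Dusp5 -0.084, and normexp with quantile normalization gave Egr1 0.029 and Egr2 -0.0057. Array weights gave Egr1 0.24, Nr4a2 -0.094, Klf6 0.083, Crem -0.017, Sik1 -0.039 and Dusp5 -0.25, and the random slide block gave Klf6 0.033. With 1 array left out, the ranges were -0.16 to 0.21 for Jun, -0.27 to 0.26 for Egr1, -0.052 to 0.35 for Nr4a2, -0.16 to 0.16 for Klf6, -0.017 to 0.24 for Crem, -0.024 to 0.15 for Per1, -0.046 to 0.38 for Sik1, -0.084 to 0.011 for Ier5 and -0.21 to 0.24 for Dusp5. Ranges that kept their sign were 0.14 to 0.39 for Atf3, 0.26 to 0.83 for Egr3, 0.23 to 0.55 for Nr4a3 and 0.06 to 0.38 for Zfp36. Junb gave 0.43 with normexp and quantile normalization.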
